A study of Mus musculus with 16 samples.

Results

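The LIM homeobox genes examined here are Isl1, Isl2, Lhx1, Lhx2, Lhx3, Lhx4, Lhx5, Lhx6, Lhx8 and Lhx9, which are 10 of the 22232 protein-coding gene names in the GENCODE M1 annotation of the mouse genome build mm9. They were chosen by name, as members of the family, and all 10 were found in the annotation. For each gene, the peaks of chromatin immunoprecipitation followed by sequencing (ChIP-seq) were collected around its start sites and over its body. A peak was called a promoter peak when its centre lay within 2500 bp of the start site of a protein-coding transcript, and the promoter width is the summed length of a gene's promoter peaks.

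LIM homeodomain proteins are transcription factors with a pair of LIM domains, which bind other proteins, and a homeodomain, which binds DNA. In the nervous system they act in combinations that set the identity of neurons, and in embryonic stem cells such developmental regulators are typical targets of Polycomb repression. Polycomb repressive complex 1 places a single ubiquitin on a lysine of histone H2A (H2AK119ub1) and Polycomb repressive complex 2 trimethylates a lysine of histone H3 (H3K27me3). PCGF5 is a subunit of a noncanonical form of the first complex.

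The series held 16 ChIP-seq libraries, 1 per group, of which 10 were analysed as peak lists and 6 are inputs, not analysed here. Embryonic stem cells (ES) of the Sox1-GFP line 46C, grown on feeder cells with leukemia inhibitory factor and 2i, were either wild type or PCGF5-depleted, and neural precursor cells (NPC) of both genotypes were taken at day 6 of neural differentiation in suspension. The labels give the depleted genotype as shPCGF5, and the methods describe such 46C lines as picked clones infected with a lentiviral short hairpin RNA, although parts of the study speak of a knockout. H2AK119ub1 and H3K27me3 were profiled in all 4 kinds of cells. PCGF5 itself was pulled down through a Flag tag in ES and NPC labelled as wild type, which according to the methods carried a 3× Flag tag in the Pcgf5 gene. With 1 library per group there was no replicate error and no test of any difference, so that all comparisons below describe single libraries. The lists held 3845 to 14759 peaks for the histone marks, and 653 and 12013 peaks for Flag-PCGF5 in ES and NPC. They gave no read totals, and depth is unknown. Expression was not analysed here, so the labelled cell types could not be checked against their marker genes.

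The 10 loci lie on 7 chromosomes. On mm9, Isl1 is at chr13:117088478-117099896 and Isl2 at chr9:55388955-55393987. Lhx1 is at chr11:84331479-84338923 and Lhx5 at chr5:120881895-120891466. Lhx2 is at chr2:38194801-38225253, Lhx9 at chr1:140721763-140745153, Lhx3 at chr2:26055732-26063769 and Lhx4 at chr1:157548827-157589157. Lhx6 is at chr2:35937470-35960928 and Lhx8 at chr3:153969260-153993615. The genes span 5033 bp (Isl2) to 40331 bp (Lhx4) and have 1 to 5 start sites of protein-coding transcripts. Their start-site windows are therefore 5001 to 13037 bp long, the longest at Lhx2. Shares of the window covered allow for this length, whereas promoter widths and ranks by width do not. No other gene's promoter window shared a promoter peak with any of the 10.

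Stretches of DNA that stayed under peaks across the lists were found at Lhx5, Lhx1 and a few other members. They are shown on the strand of the gene, 5′ to 3′, from the NCBIM37 sequence behind mm9, with CG dinucleotides in capitals, since CpG-rich DNA is the typical setting of Polycomb domains in mammals. At Lhx5, 2 stretches longer than 100 bp lay under peaks of both marks in all 8 histone lists. The first, at chr5:120879651-120879763, is 113 bp long and lies outside the gene, 2244 to 2132 bp upstream of its start site. The second, at chr5:120888913-120889204, is 292 bp of intron with 12 CpG.
Lhx5 upstream: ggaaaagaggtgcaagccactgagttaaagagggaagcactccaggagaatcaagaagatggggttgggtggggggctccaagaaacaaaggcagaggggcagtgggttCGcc
Lhx5 intron: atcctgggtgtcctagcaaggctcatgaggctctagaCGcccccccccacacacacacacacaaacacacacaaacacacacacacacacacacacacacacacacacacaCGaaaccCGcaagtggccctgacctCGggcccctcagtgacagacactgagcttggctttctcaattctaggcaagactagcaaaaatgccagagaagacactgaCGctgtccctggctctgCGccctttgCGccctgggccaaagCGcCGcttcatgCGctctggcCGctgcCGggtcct

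The only other stretch of a member under all 8 histone lists was 24 bp of intron at Isl2. At Lhx1, 7 stretches lay under at least 7 of the 8 lists, of which the 2 longest that a Flag-PCGF5 peak also reached are shown. The stretch at chr11:84343066-84343192, 4269 to 4143 bp upstream of the start site, lacked only H3K27me3 of PCGF5-depleted ES, and 60 of its 127 bases lay under a Flag-PCGF5 peak of ES. The stretch at chr11:84334524-84334604 is 81 bp of intron with 0 CpG, lacked only H3K27me3 of wild type ES, and lay wholly under a Flag-PCGF5 peak of NPC.
Lhx1 upstream: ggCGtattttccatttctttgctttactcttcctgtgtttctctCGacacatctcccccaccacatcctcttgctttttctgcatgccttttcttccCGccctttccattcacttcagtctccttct
Lhx1 intron: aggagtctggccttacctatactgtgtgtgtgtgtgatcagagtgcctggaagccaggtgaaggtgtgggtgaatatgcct

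Lhx9 and Isl1 are shown by the 250 bases before their first start site, which few lists reached. The lists over the same bases of the other members were not counted. At Lhx9 (chr1:140745154-140745403, 15 CpG) all 250 bases lay under a Flag-PCGF5 peak and under H3K27me3 in wild type NPC, and under no peak of the other 8 lists. At Isl1 (chr13:117099897-117100146, 33 CpG) no H2AK119ub1 or Flag-PCGF5 peak of any list reached these bases, and H3K27me3 peaks reached 48 of them in wild type NPC and 80 in PCGF5-depleted ES.
Lhx9 before the start: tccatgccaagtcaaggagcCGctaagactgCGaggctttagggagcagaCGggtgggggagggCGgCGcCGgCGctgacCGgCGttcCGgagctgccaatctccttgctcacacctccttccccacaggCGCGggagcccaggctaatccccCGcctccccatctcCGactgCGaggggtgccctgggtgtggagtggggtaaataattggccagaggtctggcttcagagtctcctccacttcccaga
Isl1 before the start: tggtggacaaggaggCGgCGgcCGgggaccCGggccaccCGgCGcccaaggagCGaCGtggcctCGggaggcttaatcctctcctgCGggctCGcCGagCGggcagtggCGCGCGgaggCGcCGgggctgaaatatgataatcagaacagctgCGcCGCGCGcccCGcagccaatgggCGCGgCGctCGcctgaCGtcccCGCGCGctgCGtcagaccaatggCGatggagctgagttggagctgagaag

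Over the 300 bases from 250 before to 50 after the first start site, the median of the 10 genes was 19.5 CpG and 65.65% G and C, against 12 CpG and 55.3% over all 22232 genes. The dinucleotide CG, which reads the same on both strands, was present in all 10 of these windows and in 95.1% of those of all genes. The number of CpG ran from 8 at Lhx8 to 37 at Isl1. Isl1, with the most CpG among the 10, had no H2AK119ub1 promoter peak in wild type ES and 1876 bp in wild type NPC. Lhx8, with the fewest, had 773 and 519 bp. The next highest numbers, 34 at Lhx2 and 31 at Lhx1, stood beside the largest H2AK119ub1 widths of the 10 in both lists. These were 4179 bp (ES) and 4658 bp (NPC) for Lhx2, and 4429 bp (ES) and 4828 bp (NPC) for Lhx1. By contrast, Isl2 with 23 CpG was narrower in both lists than Lhx5 with 20. Widths are not corrected for window length, and the window of Lhx2 is the longest. By share of the window covered, Lhx1 was highest, with 55.9% (ES) and 74.9% (NPC). Lhx2 had 38.3 and 34.3%, below Lhx5 with 51.8 and 53.9%. A relation between CpG number and width over the 10 genes was not tested.

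The question of which members carried the marks was addressed first. Promoter peaks of H2AK119ub1 were listed at 7 of the 10 genes in wild type ES, 8 in depleted ES, 10 in wild type NPC and 8 in depleted NPC. Over all genes the shares were 6.69, 5.96, 4.98 and 4.17% in the same order. H3K27me3 promoter peaks were listed at 10, 9, 9 and 10 members, against 13.4, 12.9, 15.7 and 15.4% of all genes. The member without an H3K27me3 promoter peak in wild type NPC was Lhx4, where a peak of 8850 bp covered 4222 bp of the window but had its centre outside it. Lhx8 had none in PCGF5-depleted ES by any measure. Promoter peaks of both marks were listed at 7 of the 10 genes in wild type ES, 7 in depleted ES, 9 in wild type NPC and 8 in depleted NPC. Among all 22232 genes, both were listed at 1187, 971, 1051 and 859 in the same order. The libraries average over many cells, and a mark in fewer cells cannot be told apart from a weaker mark in each cell.

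**Figure D1:**
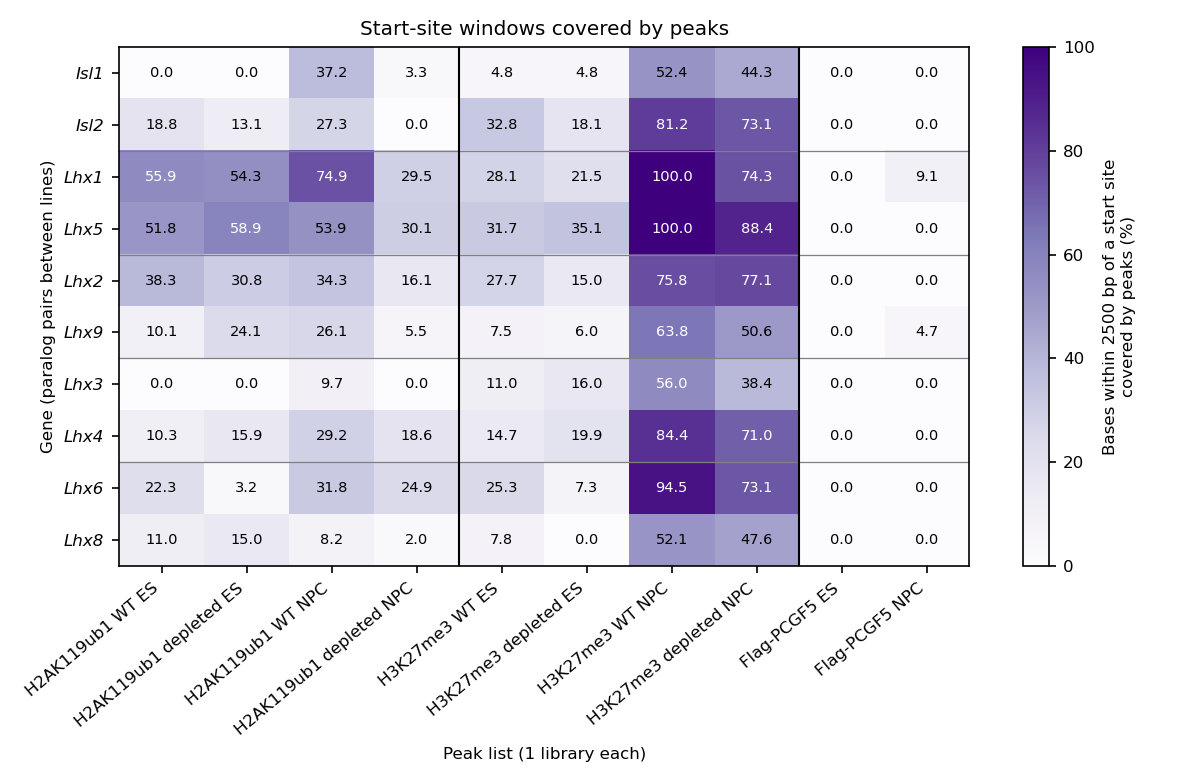
Share of the bases within 2500 bp of a start site that peaks covered, in percent, for the 10 LIM homeobox genes (rows, paralog pairs between lines) in the 10 peak lists (columns, 1 library each, depleted standing for PCGF5-depleted and WT for wild type). H3K27me3 in wild type NPC covered 52.1% (Lhx8) to 100% (Lhx1 and Lhx5) of the windows, and Flag-PCGF5 covered 9.1% at Lhx1 and 4.7% at Lhx9.

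Lhx1 and Lhx5 are close paralogs. Lhx1 acts in the head organizer, in kidney development and in interneurons, and Lhx5 in forebrain development and in interneurons of the spinal cord. H2AK119ub1 promoter width at Lhx1 was 4429 bp in wild type ES, 4000 bp in depleted ES, 4828 bp in wild type NPC and 2330 bp in depleted NPC. At Lhx5 it was 3096, 3033, 3868 and 1585 bp in the same order. In both genes the depleted NPC library stood below the other 3, which lay close together. For H3K27me3, Lhx1 had 2168 bp in wild type ES, 1655 bp in depleted ES, 10126 bp in wild type NPC and 5343 bp in depleted NPC, and Lhx5 had 1656, 2097, 10652 and 3775 bp. Both NPC libraries were above both ES libraries, and the wild type NPC library was highest. In wild type NPC the H3K27me3 width was a single peak at each gene, which covered 100% of the window, whereas in depleted NPC it was 8 peaks at Lhx1 and 3 at Lhx5, over 74.3 and 88.4% of the windows. By promoter width, Lhx5 ranked 12 and Lhx1 ranked 20 among the 3480 genes with an H3K27me3 promoter peak in wild type NPC. In ES, H2AK119ub1 covered more of each window than H3K27me3 did, with 55.9 against 28.1% at Lhx1 and 51.8 against 31.7% at Lhx5 in wild type cells.

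**Figure D2:**
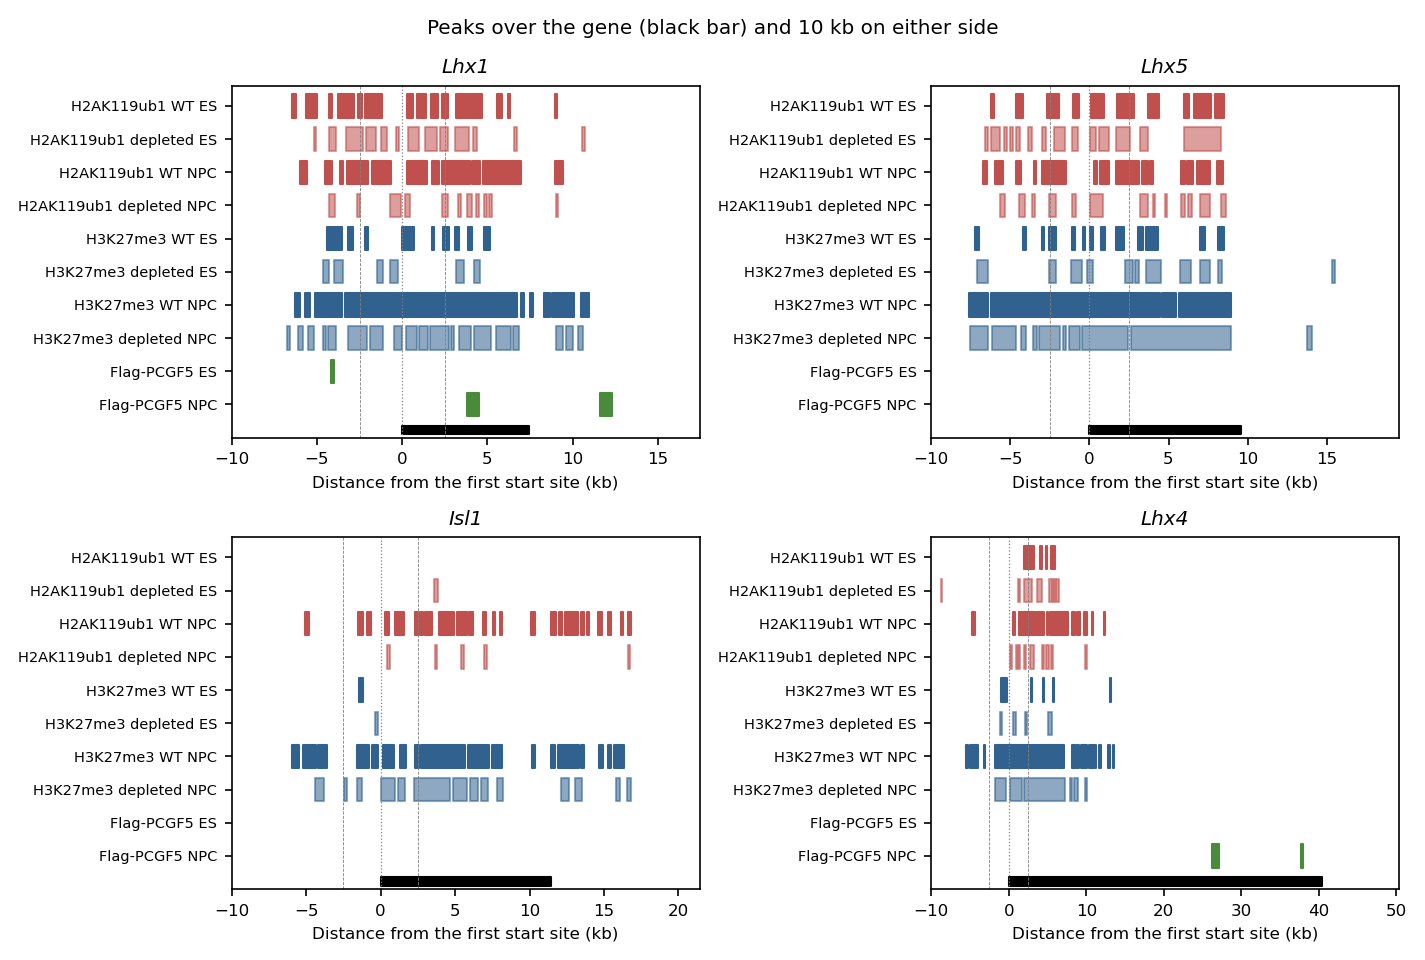
Peaks of the 10 lists (rows, 1 library each) over Lhx1, Lhx5, Isl1 and Lhx4 and 10 kb on either side, by distance from the first start site in kb in the direction of transcription. Coloured bars are peaks (paler in PCGF5-depleted cells), the black bar is the gene, and dashed lines mark 2500 bp on either side of the first start site. In wild type NPC, 1 H3K27me3 peak of 10126 bp spans the start of Lhx1 and 1 of 10652 bp that of Lhx5, where depleted NPC have several narrower peaks.

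Lhx2, which is needed for the forebrain cortex and the eye, and Lhx9, which acts in the gonad and in the brain, form a second pair. Lhx2 had H2AK119ub1 promoter widths of 4179 bp in wild type ES, 3748 bp in depleted ES, 4658 bp in wild type NPC and 2099 bp in depleted NPC, the same order of libraries as at Lhx1. Its H3K27me3 widths were 3481, 2141, 7415 and 9295 bp, so that here the depleted NPC library was the highest. Counted as bases inside the window, the latter difference shrank to 9888 against 10047 bp. Lhx2 ranked 7 among the 3434 genes with an H3K27me3 promoter peak in depleted NPC, beside the length of its window, the largest of the 10. Lhx9 had H2AK119ub1 widths of 1109, 2657, 2493 and 611 bp and H3K27me3 widths of 829, 657, 6658 and 5583 bp. H2AK119ub1 at Lhx9 was thus wider in the depleted library in ES and narrower in NPC.

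Isl1 and Isl2 are needed for motor neurons, and Isl1 also for the heart and pancreas. Isl1 had no H2AK119ub1 promoter peak in either ES library, 1876 bp in 5 peaks in wild type NPC and 167 bp in 1 peak in depleted NPC. Its H3K27me3 width was 239 bp in both ES libraries, 2695 bp in wild type NPC and 1936 bp in depleted NPC. In ES Isl1 was thus the member with the smallest summed width of both marks, and in wild type NPC both marks were present. Isl2 already carried both marks in ES, with H2AK119ub1 widths of 827 bp in wild type ES, 583 bp in depleted ES, 1728 bp in wild type NPC and none in depleted NPC. Its H3K27me3 widths were 1721, 1062, 1986 and 4274 bp. The NPC order of Isl2 rests on the rule of the centre, since a peak of 5682 bp in wild type NPC was centred outside the window, and inside the window wild type NPC had more covered bases than depleted NPC, 4062 against 3657 bp.

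Lhx3 and Lhx4 act together in motor neurons and in the pituitary. Lhx3 had the smallest H2AK119ub1 promoter width over the 4 lists among the 10 genes, with 745 bp in wild type NPC and none in the other 3 libraries. Over the gene body, however, Lhx8 had less of this mark than Lhx3 in each list, with 1.1 against 19.2% covered in wild type NPC. H3K27me3 was present at Lhx3 in all 4 lists, with 733 bp in wild type ES, 1070 bp in depleted ES, 3919 bp in wild type NPC and 3060 bp in depleted NPC. At Lhx4 the H2AK119ub1 widths were 0, 1283, 2457 and 929 bp. The value of 0 in wild type ES again reflects the centre rule, as 516 bp of the window lay under a peak there and 796 bp in depleted ES. H3K27me3 covered 734 bp inside the Lhx4 window in wild type ES, 993 bp in depleted ES, 4222 bp in wild type NPC and 3553 bp in depleted NPC.

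Lhx6 and Lhx8 are expressed in the medial ganglionic eminence, where Lhx6 acts in cortical interneurons and Lhx8 in cholinergic neurons. Lhx6 had H2AK119ub1 promoter widths of 1418 bp in wild type ES, 202 bp in depleted ES, 2021 bp in wild type NPC and 1578 bp in depleted NPC. Among the members with an H2AK119ub1 promoter peak in both ES libraries, Lhx6 had the largest ratio between them. Its H3K27me3 widths were 1607, 461, 6179 and 4718 bp, with the depleted library lower at both stages. Over the gene body of Lhx6 the order was the reverse, with 5.7% in wild type and 6.7% in depleted ES, and 42 and 45% in NPC. Lhx8 had narrow H2AK119ub1 peaks in every library, with 773, 1056, 519 and 138 bp, and was the only member whose H2AK119ub1 promoter width was lower in wild type NPC than in wild type ES. Counted inside the window, Lhx2 was lower as well, with 4990 bp in wild type ES and 4467 bp in wild type NPC. The H3K27me3 width of Lhx8 was 545 bp in wild type ES, 0 in depleted ES, 3531 bp in wild type NPC and 3516 bp in depleted NPC.

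The strongest enrichment in any promoter peak of the 10 genes was at Lhx5. Its highest fold enrichment over background, as the authors' peak caller gave it, was 13.53 for H3K27me3 and 11.65 for H2AK119ub1, both in wild type NPC. For H2AK119ub1 the lead of Lhx5 rests on the centre rule. A peak of 1235 bp in wild type NPC, with a fold of 11.79, reached the window of Lhx9 but was centred outside it. The highest value of H2AK119ub1 at Isl1 was 10.54 in wild type NPC and 4.38 in depleted NPC. Not all members were lower in depleted NPC by this measure, since Lhx1 had 5.40 in wild type and 8.48 in depleted NPC for the same mark. Over the members with peaks, the highest fold per gene ran from 3.22 to 8.24 in the H2AK119ub1 lists of ES and from 3.86 to 11.65 in those of NPC. Fold values belong to the depth and background of their own library.

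Over the gene bodies, H3K27me3 showed the largest spread among members. In wild type NPC it covered 93.5% of Lhx1, 91.6% of Isl2, 89.9% of Lhx5 and 81.8% of Lhx3, but 25.3% of Lhx4 and 9% of Lhx8, with a median of 54.1%. In wild type ES the median was 9.75%, from 0 at Isl1 to 64.7% at Isl2. For H2AK119ub1 the medians were 11.75% in wild type ES, 11.5% in depleted ES, 22.8% in wild type NPC and 6.4% in depleted NPC. The H2AK119ub1 share of Lhx1 was 79.3% in wild type and 22.2% in depleted NPC, that of Isl2 54.5 and 12.4%, and that of Isl1 40.9 and 6.4%. In NPC the body share of this mark was lower in the depleted library at each of the 10 genes, against 55.6% of all genes with a peak over the body in either list.

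**Figure D3:**
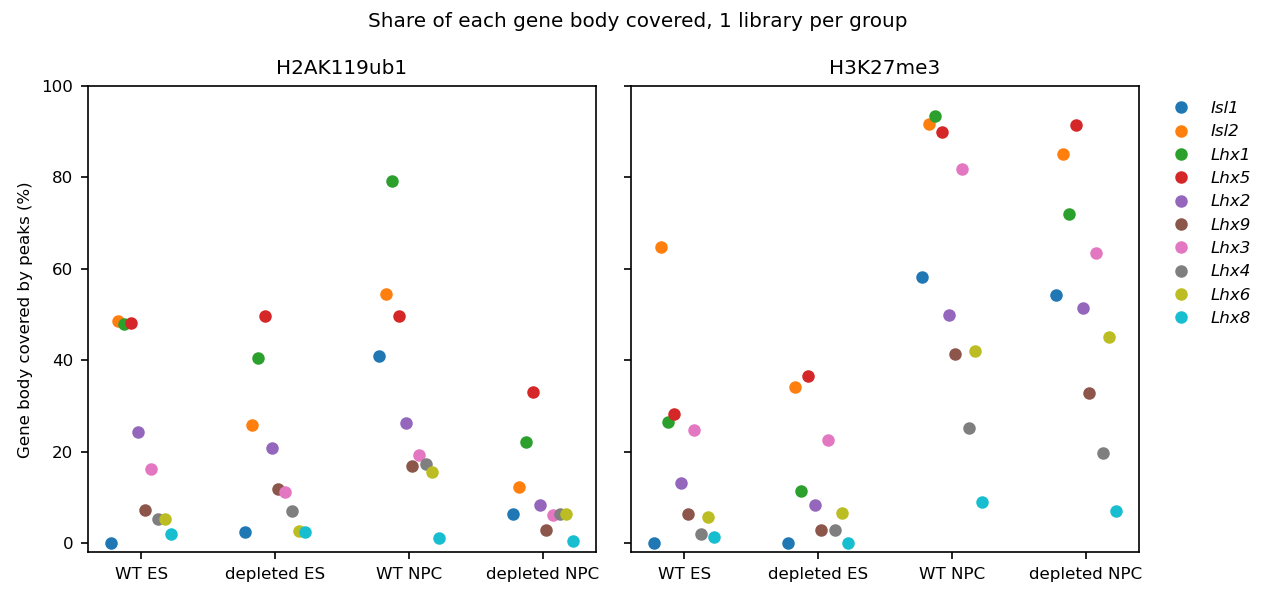
Share of each gene body covered by peaks, in percent, for the 10 genes (coloured points) in the 4 H2AK119ub1 lists and the 4 H3K27me3 lists, 1 library each. H2AK119ub1 points of PCGF5-depleted NPC lie between 0.6 and 33%, against 1.1 to 79.3% in wild type NPC, and H3K27me3 is highest in the NPC libraries of both genotypes.

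To see how the marks differed between stages, the 10 genes were summed. In wild type cells the H3K27me3 promoter width of the 10 genes was 13713 bp in ES and 53161 bp in NPC, a ratio of 3.88 (log2 ratio 1.95). In PCGF5-depleted cells it was 10375 and 44469 bp, a ratio of 4.29 (log2 ratio 2.1). Over all genes the log2 ratios were 1.43 and 1.25. In wild type cells 9 members were wider in NPC, 8 of them at least 2 times, and Lhx4 was at least 2 times narrower by the centre rule. Among all genes with a peak in either list, 73.6% were wider, 60.3% at least 2 times, and 21.5% were at least 2 times narrower. In depleted cells 10 of 10 members were wider in NPC, 9 at least 2 times, against 72.5% wider, 56.9% at least 2 times wider and 19.6% at least 2 times narrower among all genes. The whole H3K27me3 lists also covered more of the genome in NPC, with 9.67 Mb against 4.32 Mb in wild type cells.

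H2AK119ub1 differed between the stages in opposite directions in the 2 genotypes. In wild type cells its summed promoter width was 15831 bp in ES and 25193 bp in NPC (log2 ratio 0.67, over all genes 0.25). Of the 10 members 9 were wider in NPC, 5 at least 2 times and 0 at least 2 times narrower, whereas among all genes 35.7% were at least 2 times wider and 50.7% at least 2 times narrower. The share of all genes wider by any amount was not counted. The 9 rest on the counting, since a window of 1000 bp gave 6 wider and 4 narrower (log2 ratio 0.53). Merging peaks within 1000 bp gave 5 wider and 3 narrower (0.39), and the gene with 10 kb on either side 10 wider and 0 narrower (0.85). In PCGF5-depleted cells the sum was 16562 bp in ES and 9437 bp in NPC (log2 ratio -0.81, over all genes -0.53). Of the 9 members with a peak in either list, 2 were wider, both at least 2 times, and 7 were narrower, 3 at least 2 times, against 26.7 and 54.2% of all genes at least 2 times wider and narrower. The members that were wider in depleted NPC than in depleted ES were Isl1 and Lhx6. The list of depleted NPC was the shortest histone list, with 3845 peaks against 7170 in depleted ES, and with equal numbers of top-scoring peaks the log2 ratio was -0.11.

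The comparison of genotypes addressed whether the marks at these genes differed without PCGF5. In NPC, H2AK119ub1 promoter width was lower in the depleted library at all 10 members. The sum was 25193 bp in wild type and 9437 bp in depleted NPC, a ratio of 0.375 (log2 ratio -1.42), and over all genes the log2 ratio was -0.92. At least 2 times narrower were 9 of 10 members, with Lhx6 the exception, and 0 were at least 2 times wider. Among all genes with a peak in either list, 63.3% were narrower, 51.8% at least 2 times, and 29% were at least 2 times wider. Bases inside the window were also fewer at 10 of 10 members, against 63.6% of all genes. Inside the window, however, Lhx5 (2698 against 1505 bp) and Lhx4 (1458 against 929 bp) were less than 2 times narrower, like Lhx6. The share of all genes at least 2 times narrower inside the window was not counted. The count of narrower members rests on the window and on the splitting of peaks. With a window of 1000 bp, 2 members were wider and 7 narrower (log2 ratio -0.70). After peaks within 1000 bp were merged, 3 were wider and 7 narrower (log2 ratio -0.80). The whole list was shorter too, covering 2.33 Mb in wild type and 1.12 Mb in depleted NPC. With equal numbers of top-scoring peaks in both lists the log2 ratio of the members was -1.17. The part of sequencing depth was not tested.

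H3K27me3 differed less between the genotypes in NPC. Its summed width was 53161 bp in wild type and 44469 bp in depleted NPC (log2 ratio -0.26, over all genes -0.36). There were 3 members wider, Isl2, Lhx2 and Lhx4, and 7 narrower, with 2 at least 2 times wider and 1 (Lhx5) at least 2 times narrower. Among all genes 23.7% were at least 2 times wider and 34.1% at least 2 times narrower. Inside the windows 9 of 10 members had fewer covered bases in depleted NPC, against 63.6% of all genes, with Lhx2 the exception. The direction at Isl2 and Lhx4 therefore depended on how wide peaks were counted, and so did the size of the difference at Lhx5, which had 5001 bp inside the window in wild type and 4420 bp in depleted NPC. Over the body of Lhx5 the depleted library covered slightly more, 91.5 against 89.9%.

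**Figure D4:**
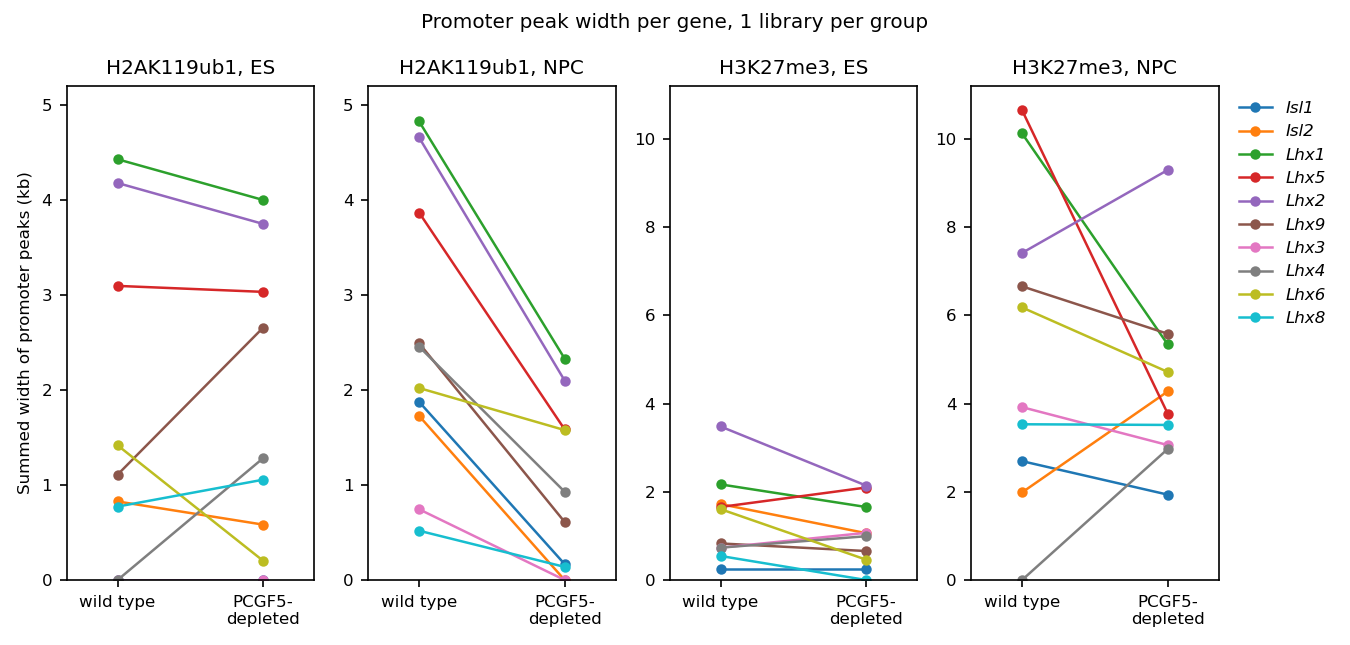
Summed width of promoter peaks in kb in wild type and PCGF5-depleted cells, by mark and stage, with a line for each of the 10 genes and 1 library per group. All 10 lines descend for H2AK119ub1 in NPC, while those of the other panels go both ways, and the value of 0 for Lhx4 in H3K27me3 of wild type NPC is a peak of 8850 bp centred outside the window.

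By summed promoter width the genotypes stood closer together in ES than in NPC for H2AK119ub1, but not for H3K27me3. The summed H2AK119ub1 width was 15831 bp in wild type and 16562 bp in depleted ES (log2 ratio 0.07, over all genes -0.14), and the sign of this ratio turned in 5 other ways of counting. Of the 8 members with a peak in either list, 3 were wider (Lhx4, Lhx8 and Lhx9) and 5 narrower, with 2 and 1 of them by at least 2 times, against 33.6 and 43.5% of all genes. For H3K27me3 the sum was 13713 bp in wild type and 10375 bp in depleted ES (log2 ratio -0.40, over all genes -0.18). The order of the stages for this mark rests on the counting. Any base of a peak in the window gave -0.43 in ES and -0.48 in NPC. The gene with 10 kb on either side gave -0.23 and -0.27, and equal numbers of top-scoring peaks -0.21 and -0.29. Under the other alternatives the difference stayed larger in ES. By promoter width 3 members were wider and 6 narrower. None was at least 2 times wider and 2 (Lhx6 and Lhx8) were at least 2 times narrower, against 27.7 and 34.5% of all genes.

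**Figure D5:**
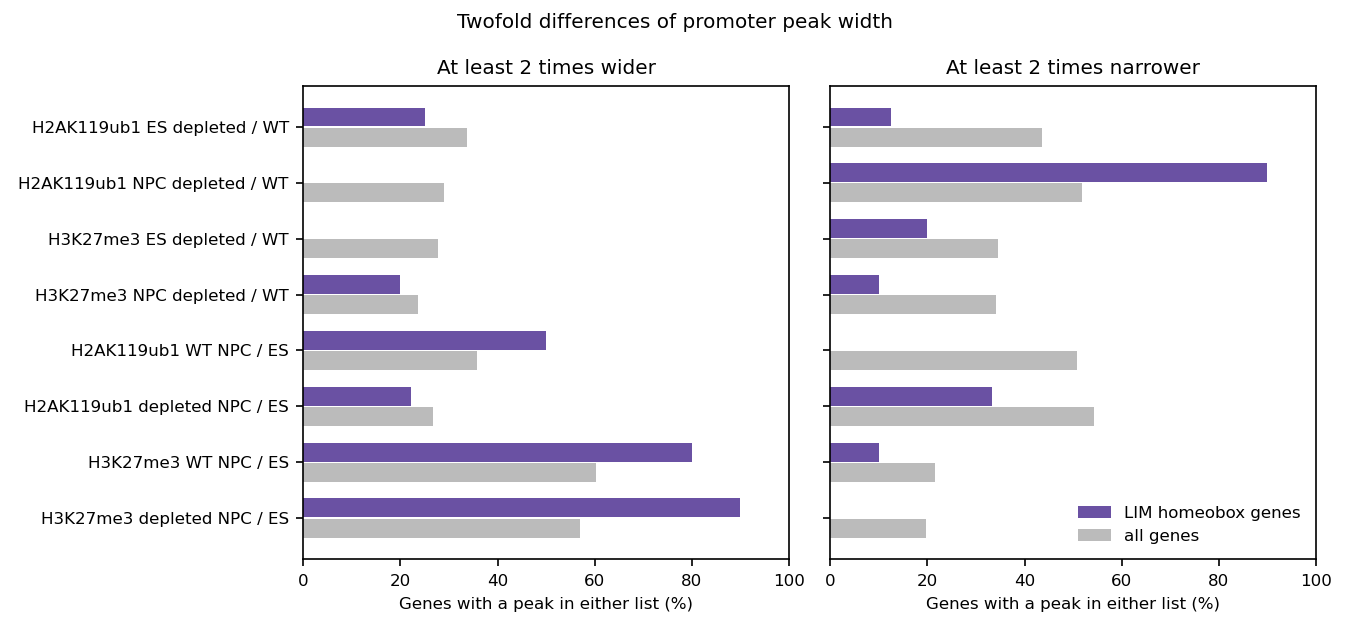
Share of genes with promoter peaks at least 2 times wider (left) or narrower (right) in each of the 8 comparisons, in percent of genes with a peak in either list, for the LIM homeobox genes (purple, 8 to 10 genes) and all genes (grey), with 1 library per group and no test. The members stand farthest above the other genes for narrower H2AK119ub1 in depleted NPC, with 9 of 10 members against 51.8%. At Lhx4 and Lhx5 this rests on counting whole peaks, since inside the window they were less than 2 times narrower.

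Whether both marks lay at the same place was asked through overlaps of at least 1 bp. Of the members' H2AK119ub1 promoter peaks, 24 of 33 were overlapped by H3K27me3 in wild type ES, a share of 72.7% (95% Wilson interval 55.8 to 84.9, for counting error only). In depleted ES it was 13 of 36, or 36.1% (22.5 to 52.4). In wild type NPC 46 of 48 peaks (95.8%, 86 to 98.8) and in depleted NPC 31 of 32 peaks (96.9%, 84.3 to 99.4) were overlapped. In the whole lists the shares were 38.8, 27.6, 81.3 and 74.5% in the same order. H3K27me3 covered 4.8 to 32.8% of the members' windows in wild type ES and 52.1 to 100% in wild type NPC. An overlap of 1 bp is easier to reach where more of the window is covered, and the part of coverage was not tested. In depleted ES H3K27me3 was narrower than in wild type ES at 6 members and wider at 3. With a window of 1000 bp it was narrower at 5 and wider at 5. The share of all genes narrower by any amount was not counted, and a link to the overlaps was not tested. Peaks of a gene share their locus and are no replicates.

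Where PCGF5 itself was listed was asked with the Flag peaks. In ES, 0 of the 10 genes had a Flag-PCGF5 promoter peak, as against 0.787% of all genes, and in NPC 2 of 10 did, Lhx1 and Lhx9, against 13.7% of all genes. The peak at Lhx1 (chr11:84334419-84335116) was 698 bp wide with a fold of 2.30, and that at Lhx9 (chr1:140745084-140745603) was 520 bp wide with a fold of 2.15. At Lhx1 the centre lay inside the gene, 4155 bp downstream of the first of 2 start sites, and the peak counts only through the later site. A peak that was not listed in these files does not show that PCGF5 was absent. Over the gene bodies, NPC peaks were listed at Lhx1, Lhx2, Lhx4 and Lhx9, with 2 each at Lhx2 and Lhx4 and the strongest of them, with a fold of 3.03, at chr2:38214707-38214991 in Lhx2. Within 10 kb of a gene, Lhx2 had 5 NPC peaks, 3 of them downstream of the gene. The share of all genes with a Flag-PCGF5 peak over the body or within 10 kb was not counted. The only ES peak within 10 kb of any member was that upstream of Lhx1 (chr11:84342924-84343125), 202 bp wide with a fold of 3.44. Narrower H2AK119ub1 in depleted NPC was thus listed at members with and without a Flag-PCGF5 peak.

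Other genes of the LIM homeodomain system were read from a fixed list of 12. Of these, 2 had an H2AK119ub1 promoter peak in wild type ES, 4 in depleted ES, 3 in wild type NPC and 3 in depleted NPC, and 6, 5, 5 and 7 had H3K27me3. Lmx1a and Lmx1b, the remaining LIM homeobox genes, accounted for most of the width. Lmx1b, which acts in limb patterning and in serotonergic neurons, had H3K27me3 widths of 4755 bp in wild type ES, 3401 bp in depleted ES, 11345 bp in wild type NPC and 8477 bp in depleted NPC. Its H2AK119ub1 widths were 5885, 6948, 3298 and 2262 bp, higher in both ES libraries than in either NPC library, as at Lhx8 among the members. Among the LIM-only genes, whose products compete for the LDB adaptors, Lmo2 had 2687 bp of H3K27me3 in wild type NPC, and Lmo4 had none there. The adaptor genes Ldb1 and Ldb2, the cofactor gene Ssbp3 and Rlim, which encodes a ubiquitin ligase of LDB proteins, had no promoter peak of either mark in any list. Flag-PCGF5 in NPC was listed at the promoters of Ldb1 (3464 bp), Ssbp2 (1864 bp) and Lmx1b (601 bp).

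Among the 5 genes whose promoter widths over the 8 histone lists lay nearest to the median of the 10 members were Nr4a2, Sox14, Otx1 and Wnt10a. The mean absolute difference from that median profile was 366.8 bp per list at Nr4a2 and 410.1 bp at Wnt10a. Nr4a2, a nuclear receptor of dopaminergic neurons, had H2AK119ub1 widths of 2707 bp in wild type and 720 bp in depleted NPC and H3K27me3 widths of 5543 and 3694 bp. The likeness is a description over 8 libraries.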

How the data were processed

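H2AK119ub1, H3K27me3 and Flag-PCGF5 were measured by ChIP-seq in the 10 groups described above, with 1 library each, grouped by their labels. For the histone marks, micrococcal nuclease was used to cut the chromatin before a light fixation, and for Flag the cells were fixed with EGS plus formaldehyde before sonication. The authors trimmed the reads (Trimmomatic), mapped them against mm9 (Bowtie2), dropped duplicates (Picard) and ran MACS2 on every library by itself (version 2.1.0 in the submitters' processing notes), without pooling. The fly spike-in does not enter the peak lists, and depth and background act on a list's length and on peak widths. For every peak the deposited lists hold a score, a fold enrichment (ratio) and the −log10 of both the p-value and the q-value, as the authors' peak caller wrote them.

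Starts were converted to count from 1, and genes were taken from GENCODE M1 on NCBIM37. A promoter peak had its centre within 2500 bp of a protein-coding start site. The text names all 10 members, a list of 12 related genes, and the 5 genes nearest to the members' median profile, of which 1 is not reported here. The members and lists were chosen with earlier results of these data known. Differences of at least 2 times were counted, with absence in either list included. No test was made. Shares carry 95% Wilson intervals. The counting was tested on simulated data, and 100 counts were checked against bedtools 2.31.1, of which 0 differed. Python 3.11.15, numpy 2.4.6, pandas 2.3.3, scipy 1.17.1 and matplotlib 3.10.9 were used. Alternatives were a window of 1000 bp, any base of a peak in the window, the gene with 10 kb on either side, a q-value of at most 0.01, the higher-scoring 50% of each list, equal numbers of top-scoring peaks, peaks within 1000 bp merged, an overlap of at least 50% and, added after seeing the data, the bases inside the window. Read totals are not in the files used here, so depth and its precision are unknown. The 6 inputs were left out.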

Additional observations from a re-analysis of the deposited data

Results flagged for a closer look

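Some differences went in opposite directions in the groups compared. With 1 library per group none of these contrasts of differences was tested. The H2AK119ub1 promoter width of the 10 genes, depleted minus wild type, was 731 bp in ES and -15756 bp in NPC. The same difference at Lhx9 was 1548 bp in ES and -1882 bp in NPC, and at Lhx4 it was 1283 bp in ES and -1528 bp in NPC, where the ES value of Lhx4 rests on a wild type peak centred outside the window.

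From ES to NPC, the H2AK119ub1 width of the 10 genes differed by 9362 bp in wild type and by -7125 bp in PCGF5-depleted cells (NPC minus ES). At Isl2 the values were 901 and -583 bp and at Lhx9 1384 and -2046 bp. For H3K27me3 at Lhx4 they were -734 bp in wild type and 1976 bp in depleted cells, and here the wild type value comes from a peak of 8850 bp whose centre lay outside the window. Inside the window both genotypes had more H3K27me3 at Lhx4 in NPC, from 734 to 4222 bp in wild type and from 993 to 3553 bp in depleted cells.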

How the results depend on the processing

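Under the alternatives 79 values stayed close to the reported ones (the same direction and within 1.5 times for ratios and counts, inside the reported 95% interval for shares), 19 moved further and 5 turned in sign, and the cause was not tested. The 5 belong to the H2AK119ub1 log2 ratio of depleted to wild type ES, reported as 0.07. Any base of a peak in the window gave -0.02, the gene with 10 kb on either side -0.05, a q-value of at most 0.01 gave -0.09, the higher-scoring 50% of each list -0.46 and the bases inside the window -0.01, while merging, within that limit, gave 0.64 with 6 members wider and 1 narrower. The H2AK119ub1 ratio of depleted to wild type NPC, reported as -1.42, was -0.70 with a window of 1000 bp, -2.20 with the higher-scoring 50% and -0.80 after merging. The NPC to ES ratio of H2AK119ub1 in depleted cells, reported as -0.81, was -0.11 with equal numbers of peaks. With the higher-scoring 50% the H3K27me3 ratios of NPC to ES were 2.67 in wild type and 2.73 in depleted cells.

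The share of H2AK119ub1 promoter peaks overlapped by H3K27me3 in wild type ES was 33.3% with the higher-scoring 50%, 51.5% with equal numbers of peaks and 30.3% when 50% or more of the peak had to be overlapped. In depleted ES these values were 17.6, 22.2 and 16.7%. The share in wild type NPC was 100% with a window of 1000 bp, and in depleted NPC it was 68.8% with equal numbers of peaks and 100% after merging. Members with a Flag-PCGF5 peak in NPC, reported as 2, were 1 with a window of 1000 bp, 4 over the gene and 10 kb on either side, 1 with the higher-scoring 50% and 0 with equal numbers of peaks in ES and NPC.

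No paired analysis was possible because the labels give no replicate numbers and each group has 1 library, and for the same reason none was left out in turn. Depth is unknown, which limits any reading of a missing peak.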
